A study of Homo sapiens with 12 samples.

Results

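The genes described here are 58 genes of mitosis, covering the mitotic kinases, the spindle and the kinetochore. They were taken by gene symbol from a named list, out of 43481 genes with transcripts in the deposited tables. All 58 passed the filter on low counts and were among the 15263 genes tested. The cells were RPE-1, an immortalised human line of retinal pigment epithelium origin, and messenger RNA was sequenced in 12 libraries, 3 in each of 4 groups. DMA cells were deprived of fetal calf serum (FCS) and glucose for 24 h and then refed for 4 h (10% FCS, glucose at 5 g/l) in the presence of 100 µM dimethyl amiloride (DMA), an inhibitor of Na+/H+ exchangers. C646 cells were starved and refed alike, with 10 µM C646, an inhibitor of the histone acetyltransferases p300 and CBP. Solvent cells were starved and refed alike with DMSO. Starved cells had the 24 h without FCS and glucose and no refeeding, and the labels name no solvent for them. All were grown in RPMI medium with FCS and glucose before. Libraries carry the numbers 1 to 3 within a group, and nothing in the labels tells whether they were separate cultures. Every p-value therefore measures the spread between these libraries, which may be technical.

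Mitotic genes are transcribed mainly in the G2 phase and in mitosis, so that their messenger RNA is low in resting cells and high in cells about to divide. Cyclin-dependent kinase 1 with its cyclins drives entry into mitosis, Aurora and Polo-like kinases build the spindle, and the kinetochore ties each chromosome to spindle microtubules. The checkpoint holds back anaphase until every kinetochore is attached, and the anaphase promoting complex then releases the sister chromatids. In quiescent cells many of these genes are silenced through promoter elements bound by the DREAM complex, and in G2 the same elements recruit activators that include FOXM1. RPE-1 cells are widely used to study this cycle, since they enter quiescence when serum is withdrawn.

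Promoter sequences are shown for genes whose messenger RNA differed between groups, and for the cyclin CCNB1, because the letters of such elements can be read in them. The letters searched were TTTGAA and TTTAAA, the core letters of the cell cycle genes homology region, and CCAAT, the letters of the CCAAT box. Both strands were read over 300 bases, 250 before and 50 after the gene start, in RefSeq's promoter table on GRCh38.p14. The table held 49 of the 58 genes, and the first start listed was used for each. TPX2, RACGAP1, BIRC5, UBE2C, AURKA, BUB3, FOXM1, TTK and KNL1 were not matched. TTTGAA stood in 33 of the 49 promoters (67.3%), against 15.4% of all 27305 promoters. TTTAAA, which reads the same on both strands, stood in 15 (30.6%), against 12.3% of all promoters. CCAAT stood in 35 (71.4%), against 35.7% of all promoters. Both CCAAT and one of the TTTGAA or TTTAAA elements stood in 30 (61.2%), against 9.49% of all promoters. The table also held 50 promoters from a list of 63 other mitotic genes, taken up below. Of these, 58% had TTTGAA, 12% TTTAAA, 68% CCAAT and 46% both CCAAT and one of the other elements. A match is a description of letters and not a site shown to be bound.

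The 250 bases before the start are printed 5′ to 3′ on the gene's own strand, with matches in capitals. They lie at chr15:40160819-40161068 (plus strand) for BUB1B, chr15:90994536-90994785 (minus strand) for PRC1, chr15:59104896-59105145 (plus strand) for CCNB2 and chr5:69166900-69167149 (plus strand) for CCNB1.
BUB1B: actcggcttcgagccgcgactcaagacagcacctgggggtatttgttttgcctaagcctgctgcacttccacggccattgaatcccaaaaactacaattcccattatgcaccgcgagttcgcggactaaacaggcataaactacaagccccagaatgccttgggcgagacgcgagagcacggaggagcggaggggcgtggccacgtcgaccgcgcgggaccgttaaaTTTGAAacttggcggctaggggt
PRC1: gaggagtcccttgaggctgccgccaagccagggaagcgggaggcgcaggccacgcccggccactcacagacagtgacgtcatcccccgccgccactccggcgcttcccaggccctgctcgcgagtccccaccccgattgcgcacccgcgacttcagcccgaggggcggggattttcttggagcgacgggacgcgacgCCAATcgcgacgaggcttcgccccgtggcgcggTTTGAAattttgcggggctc
CCNB2: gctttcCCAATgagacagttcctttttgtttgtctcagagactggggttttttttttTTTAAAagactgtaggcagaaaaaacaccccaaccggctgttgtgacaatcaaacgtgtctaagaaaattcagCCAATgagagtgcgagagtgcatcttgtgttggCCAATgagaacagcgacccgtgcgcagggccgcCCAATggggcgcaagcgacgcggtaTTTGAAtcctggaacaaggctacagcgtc
CCNB1: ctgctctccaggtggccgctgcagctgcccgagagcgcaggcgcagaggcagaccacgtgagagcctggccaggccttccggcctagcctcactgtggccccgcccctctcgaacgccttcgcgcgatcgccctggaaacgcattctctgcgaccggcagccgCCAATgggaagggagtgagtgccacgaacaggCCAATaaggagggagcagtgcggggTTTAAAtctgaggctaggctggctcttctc

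In each of these promoters a TTTGAA or TTTAAA match began close to the start. TTTGAA began 23 bases before it in BUB1B, 20 bases in PRC1 and 29 bases in CCNB2, and TTTAAA began 30 bases before it in CCNB1. CCNB2 also had a TTTAAA match farther away, at 193 bases before the start. CCNB2 had 4 CCAAT matches, at 244, 120, 87 and 54 bases before the start. CCNB1 had 2, at 87 and 55 bases, and PRC1 had 1, at 53 bases. BUB1B had no CCAAT match in its window.

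The libraries held 14910516 to 28968510 expected counts. Levels below are CPM (counts per 1000000 counts of the library, scaled with TMM, the trimmed mean of M-values), and changes are log2 fold changes from edgeR with Benjamini-Hochberg adjusted p-values over all genes tested and a threshold of 0.05. A change is called where its adjusted p is under that threshold. Counts at an unadjusted p under 0.05 are given without the share of all genes, so they do not show an excess. Of 9 pigment epithelium markers, RPE65, RLBP1, TYR and TYRP1 did not exceed 0.293 CPM in any library, and BEST1, PMEL and SERPINF1 did not exceed 3.92 CPM. MITF lay at 17.4 to 55.4 CPM and OTX2 at 6.76 to 21.9 CPM. The epithelial keratin genes KRT8 and KRT18 lay at 220 to 558 and at 367 to 686 CPM. The mesenchymal gene VIM lay above both, at 4020 to 7040 CPM. Markers of blood and endothelial cells did not exceed 1.03 CPM. Messenger RNA was measured in bulk, so fewer cells in mitosis and less of each messenger RNA per cell cannot be told apart.

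The mitotic genes were expressed in every library. Their expected counts lay between 34 and 9963. On the length-corrected scale of TPM (transcript abundance corrected for length), which allows genes to be compared, the mean over the 12 libraries had a median of 20.2 TPM over the 58 genes. BUB3, a checkpoint protein that also serves in messenger RNA processing, led with 239 TPM. PTTG1 (securin, the inhibitor of separase) followed with 153 TPM, UBE2C (the ubiquitin-conjugating enzyme of the anaphase promoting complex) with 68.6 TPM and CCNB1 with 62.5 TPM. The lowest were CDC25C with 3.15 TPM, the kinesin gene KIF14 with 2.68 TPM and ESPL1 (separase) with 2.25 TPM.

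Together the 58 genes made up 3312, 2608 and 2454 CPM in DMA cells, 1953, 2069 and 2105 CPM in C646 cells, 3629, 2362 and 2330 CPM in solvent cells and 2759, 3171 and 2512 CPM in starved cells. The 3 C646 libraries were below each of the other 9 libraries. The group means were 2791 ± 457 CPM with DMA, 2042 ± 79.2 CPM with C646, 2774 ± 741 CPM with solvent and 2814 ± 333 CPM in starved cells (SD, n = 3 each). With the libraries scaled to their 92 spike-in control sequences instead, the means were 3354 ± 157, 2357 ± 598, 2766 ± 448 and 1970 ± 433 CPM in the same group order. On that scale the starved cells were lowest and the C646 libraries overlapped the solvent libraries. Spike-in counts made up 0.527 to 1.28% of a library, and this share was highest in library 1 of each group. In solvent libraries it was 1.06, 0.527 and 0.663%. The spread of this share within groups enters every result with spike-in scaling.

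**Figure D1:**
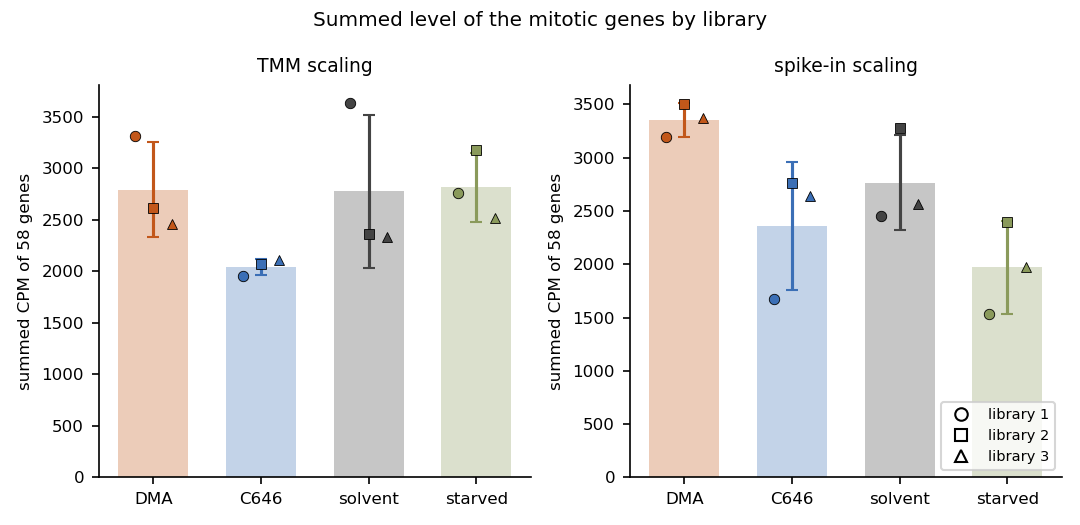
Summed CPM of the 58 mitotic genes in each library (points), with the group mean (bar) and SD (error bar, n = 3), under TMM scaling on the left and spike-in scaling on the right. Under TMM scaling the C646 libraries sit at 1953 to 2105 CPM, below the other libraries, while under spike-in scaling the starved mean of 1970 CPM is the lowest.

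Under TMM scaling the mean level was lowest in C646 cells for 55 of the 58 genes. The exceptions were BUB3 and PTTG1, which were lowest in starved cells, and ARHGAP11A, a GTPase-activating protein of cytokinesis, which was lowest in DMA cells. No gene was highest in C646 cells, while 19 were highest in DMA cells, 17 in solvent cells and 22 in starved cells. These counts hold for TMM scaling only. With spike-in scaling the summed level was lowest in starved cells, at 1970 CPM beside 2357 CPM with C646. The share of all genes lowest in C646 cells was not computed. Of the 58 genes, 19 were called in at least 1 of the 6 comparisons between groups, and 39 in none. The same share over all genes was not computed, so this count does not show an excess.

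Within the groups, the libraries differed together. In solvent cells library 1 was the highest of its group for 57 of the 58 genes, against 35.6% of all genes tested. In DMA cells library 1 was the highest for 51 genes, against 35.7% of all genes. Among C646 cells library 1 was the lowest for 30 genes, against 31% of all genes. In starved cells library 2 was the highest for 40 genes, against 29.9% of all genes, and library 3 the lowest for 41, against 38.5%. These orders are under TMM scaling. With spike-in scaling the summed levels were 2452, 3278 and 2566 CPM with solvent and 3190, 3503 and 3370 CPM with DMA. Library 1 was then the lowest in both, and also with C646 (1670 CPM) and in starved cells (1535 CPM). Under TMM scaling solvent library 1 was also the highest of its group for all 32 genes of a DNA replication list (MCM, GINS and replication factor C genes among them). Their summed level in solvent libraries was 2104, 1113 and 1237 CPM, beside 973.5, 987 and 935.9 CPM with DMA, 876, 961 and 969.4 CPM with C646 and 1012, 1305 and 1181 CPM in starved cells. The part of this library difference in the results was not tested beyond the values given without solvent library 1.

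Refeeding with C646 was set against refeeding with solvent. Each of the 58 log2 changes was below 0, although BUB3, PTTG1 and FOXM1 were above 0 with spike-in scaling. The median was -0.58 and the range -0.94 to -0.02, while the median over all genes tested was 0.01. With spike-in scaling the median of the 58 was -0.35, beside 0.13 for all genes, and none was called, beside 0.655% of all genes. BUB1B, with an adjusted p of 0.0498, was the 1 gene called lower, beside 0.4% of all genes. In 35 of the 58 genes (60.3%) every C646 library was below every solvent library, beside 11.6% of all genes, and in none was every one above, beside 10.2%. Without solvent library 1 no gene was called, beside 0.153% of all genes, 10 had an unadjusted p under 0.05, and the median change was -0.31 with 55 of 58 below 0. The library numbers were taken as pairs for these 2 groups, from correlations in the data and not from the labels. With the number as a block 11 genes were called lower, beside 3.73% of all genes: BUB1B, AURKA, CCNA2, CDCA8, ESPL1, KIF23, KIF2C, KIF4A, MAD2L1, TOP2A and TTK. DESeq2 called 12 lower, beside 2.76% of all genes. With the block and without solvent library 1 none was called, 19 had an unadjusted p under 0.05, and the median was -0.32.

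Refeeding with DMA was set against the same solvent libraries. No gene was called, beside 0.734% of all genes called higher and 1.02% called lower, and 1 of the 58 had an unadjusted p under 0.05. DESeq2 also called none, beside 7.18% of all genes, and so did the fit with the number as a block, beside 10.2%. The log2 changes lay between -0.47 and 0.52 with a median of -0.04, beside 0.01 for all genes, with 25 above and 33 below 0. With spike-in scaling the median was 0.25, beside 0.22 for all genes, 51 were above 0, and none was called, beside 0.596% of all genes. Without solvent library 1 the median was 0.26 and 52 were above 0, with no gene called, beside 0.0511% of all genes, and 7 at an unadjusted p under 0.05. In 3 genes every DMA library was above every solvent library (CDC25B, TACC3 and PTTG1), and in none was every DMA library below, beside 11.3% and 11.9% of all genes.

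**Figure D2:**
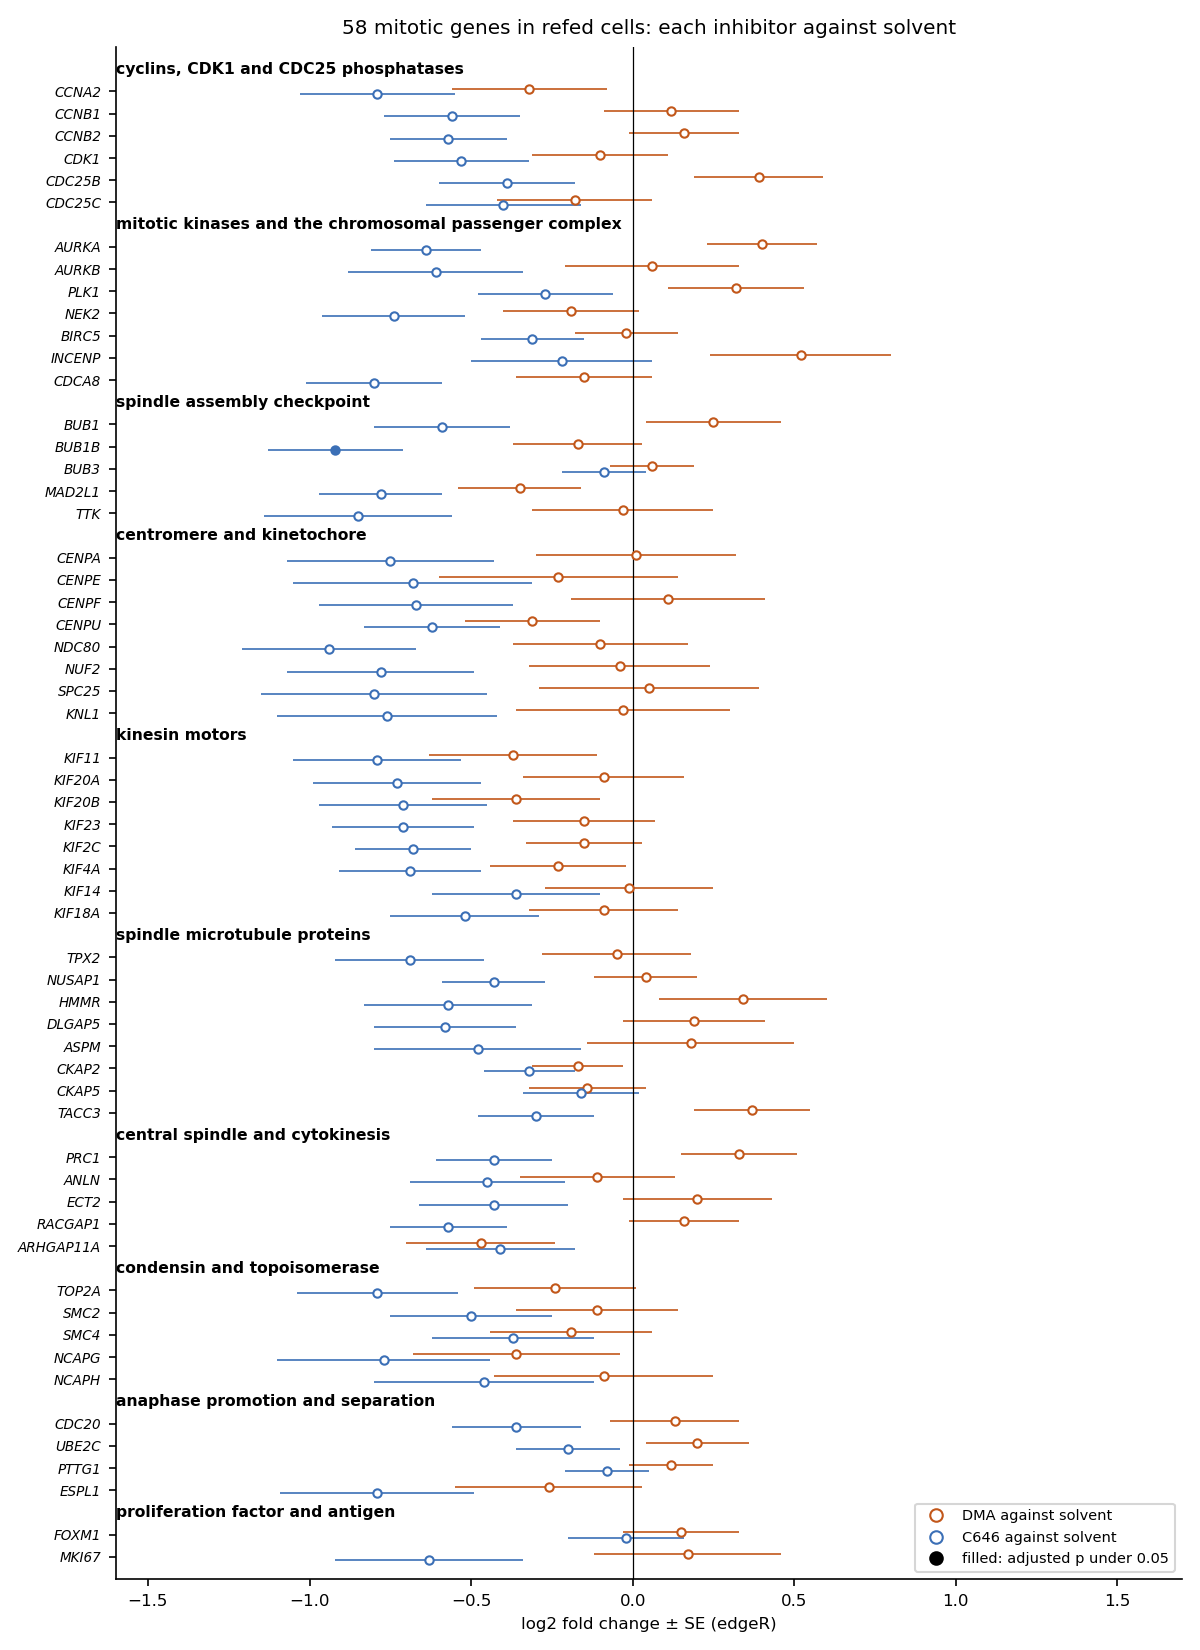
Log2 fold change ± SE of each of the 58 genes, grouped by role, for DMA against solvent (orange) and C646 against solvent (blue), with filled points for adjusted p under 0.05. Under TMM scaling the blue points all lie below 0 (with spike-in scaling BUB3, PTTG1 and FOXM1 do not) and BUB1B is the filled one, while the orange points lie on both sides of 0.

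The inhibitors were then compared with each other. The fold changes of this comparison do not use the solvent libraries, which enter the estimate of the spread, and with the DMA and C646 libraries alone in the fit AURKA was the 1 gene still called. The doses differed, at 100 µM for DMA and 10 µM for C646. In 57 of the 58 genes the log2 change was above 0, that is higher in DMA cells, with a median of 0.55 beside 0.00 for all genes. AURKA, RACGAP1, CCNB2 and PRC1 were higher in DMA cells than in C646 cells, which makes 4 genes called higher, beside 0.943% of all genes. None was called lower, beside 1.95% of all genes. In 37 genes (63.8%) every DMA library was above every C646 library, beside 10.5% of all genes, and in none was every DMA library below, beside 11.1%. With the number as a block, which took these libraries as pairs too, 13 genes were called higher, beside 3.96% of all genes. The further ones were ASPM, BUB1, BUB1B, CCNB1, CDC25B, ECT2, INCENP, TACC3 and TTK. DESeq2 called 12 higher, beside 2.77% of all genes. With spike-in scaling none was called, beside 0.786% of all genes, 20 had an unadjusted p under 0.05, and the median was 0.59 beside 0.10 for all genes. The call for AURKA was kept with any 1 of the 6 libraries left out, and those for PRC1 and RACGAP1 were lost in each such fit. The call for CCNB2 was kept only without C646 library 3.

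The ratio within each library number shows how evenly these differences were spread. For C646 against solvent the median log2 ratio of the 58 genes was -1.15 in libraries 1, -0.23 in libraries 2 and -0.22 in libraries 3, with 58, 53 and 52 genes below 0. For DMA against solvent it was -0.15, 0.08 and 0.06. For DMA against C646 it was 0.95, 0.35 and 0.25, with 58, 55 and 49 genes above 0. Every number had C646 below solvent and DMA above C646 at the median, and number 1 had the widest gap in both. The ratios are of CPM with 0.5 CPM added, which understates the change of low genes.

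**Figure D3:**
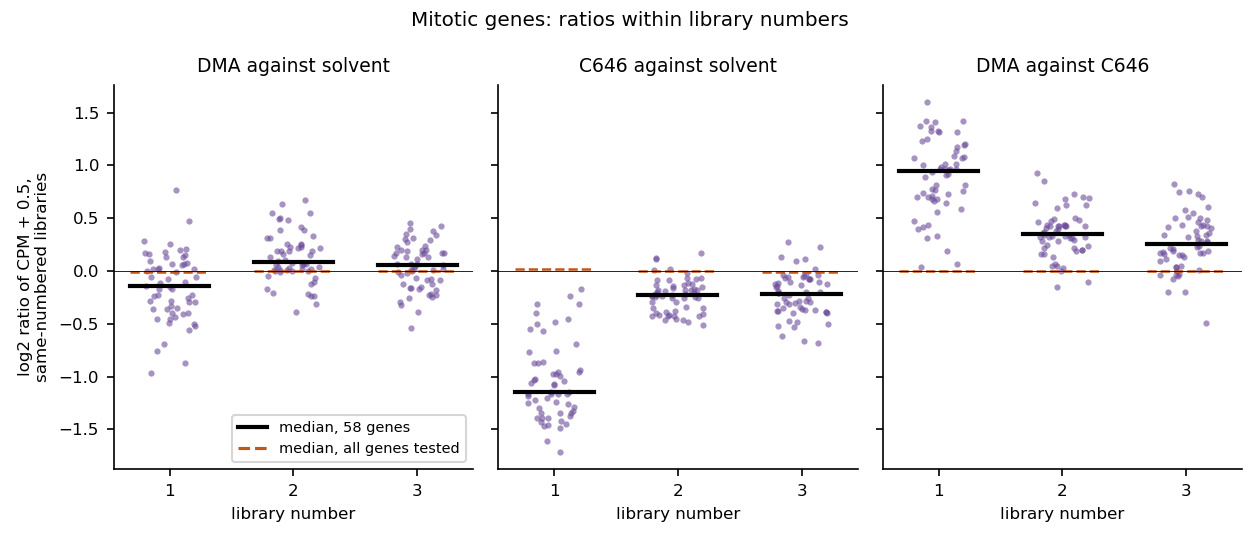
Log2 ratio of CPM + 0.5 between same-numbered libraries for each of the 58 genes (points), with their median (black bar) and the median of all genes tested (dashed line). The C646 against solvent medians are -1.15, -0.23 and -0.22, and the DMA against C646 medians are 0.95, 0.35 and 0.25.

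Among the cyclins, CDK1 and its phosphatases, C646 against solvent gave 6 of 6 log2 changes below 0 with a median of -0.54, and DMA against solvent 3 above and 3 below with a median of 0.01. CCNB1, the main mitotic cyclin and partner of CDK1, stood at 65.9, 51.1 and 46.2 CPM with DMA, 30.6, 37.8 and 33.5 with C646, 64.8, 48.3 and 37.2 with solvent and 42.1, 44.9 and 29.9 in starved cells. CDK1 itself stood at 47, 44.6 and 38 CPM with DMA, 31.2, 31.7 and 33.8 with C646, 66.6, 35.8 and 36.6 with solvent and 36.9, 43.5 and 33.1 in starved cells. For both, every DMA library was above every C646 library, and solvent library 1 was the highest of its group. The log2 change with C646 against solvent was -0.56 ± 0.21 (SE) for CCNB1 and -0.53 ± 0.21 for CDK1, with adjusted p of 0.194 and 0.224.

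CCNB2, the second B-type cyclin, stood at 34.4, 30.4 and 33.6 CPM with DMA, 14.2, 19.9 and 25.1 with C646, 32.2, 26.6 and 29.2 with solvent and 35.8, 38.7 and 34.3 in starved cells. Its C646 libraries lay below those of every other group, and its solvent libraries all lay below the starved ones. It was 1.66-fold higher with DMA than with C646 (log2 0.73 ± 0.18, adjusted p = 0.0418). CCNA2, the cyclin of S phase and G2, stood at 39.1, 25.4 and 26.2 CPM with DMA, 19.3, 23.1 and 22.9 with C646, 53.7, 30.2 and 29.3 with solvent and 30.9, 26.1 and 22.8 in starved cells. The C646 libraries of CCNA2 were all below the DMA and solvent ones and overlapped the starved ones. Its log2 change was -0.79 ± 0.24 with C646 and -0.32 ± 0.24 with DMA against solvent, neither past the threshold.

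CDC25B and CDC25C encode phosphatases that activate CDK1. CDC25B stood at 38.2, 50.1 and 35.2 CPM with DMA, 23.3, 27.5 and 21 with C646, 34.9, 31.3 and 27.7 with solvent and 42.2, 57 and 31.4 in starved cells. Its DMA libraries lay above the solvent ones and its C646 libraries below them, with log2 changes of 0.39 ± 0.20 and -0.39 ± 0.21 that did not pass the threshold. CDC25C stood at 2.96, 3.35 and 3.61 CPM with DMA, 2.86, 2.54 and 3.15 with C646, 4.08, 2.88 and 4.33 with solvent and 5.28, 4.69 and 5.92 in starved cells. For CDC25C every refed library was below every starved library.

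The mitotic kinases and the chromosomal passenger complex had 7 of 7 changes below 0 with C646 against solvent (median -0.61), and 4 above and 3 below with DMA (median 0.06). AURKA, the Aurora kinase of centrosomes and spindle poles, is encoded at chr20:56369389-56392337 on the minus strand of GRCh38 in GENCODE. It stood at 65.5, 56 and 58.5 CPM with DMA, 25.7, 29.2 and 32.9 with C646, 57.9, 35.9 and 42.7 with solvent and 32, 34.7 and 27.3 in starved cells. The DMA libraries were above every C646 and starved library, and solvent library 1 reached into their range. AURKA was 2.05-fold higher with DMA than with C646 (log2 1.04 ± 0.17, adjusted p = 0.0076), and with spike-in scaling the log2 difference was 1.10 with an adjusted p of 0.125. Against solvent the log2 change was 0.40 ± 0.17 with DMA (adjusted p = 0.217) and -0.64 ± 0.17 with C646 (adjusted p = 0.0804, and 0.0365 with the block).

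AURKB, the Aurora kinase of the passenger complex, stood at 19.9, 11.4 and 11.3 CPM with DMA, 10.2, 9.03 and 7.59 with C646, 19, 10.7 and 11.1 with solvent and 15.7, 19.1 and 13.5 in starved cells. The 3 C646 libraries were below all others, and number 1 was highest in both the DMA and the solvent group. PLK1, the Polo-like kinase of spindle assembly, stood at 50.4, 31.1 and 39.5 CPM with DMA, 25.6, 26.1 and 29.1 with C646, 41.4, 25.8 and 29.9 with solvent and 35, 44.8 and 31.2 in starved cells. Here C646 overlapped solvent, with a log2 change of -0.27 ± 0.21 (adjusted p = 0.554), and lay below DMA. NEK2, a centrosome kinase, and CDCA8 (borealin, a passenger subunit) had log2 changes of -0.74 ± 0.22 and -0.80 ± 0.21 with C646 against solvent. The passenger subunits BIRC5 (survivin) and INCENP had smaller ones, -0.31 ± 0.16 and -0.22 ± 0.28.

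Of the 5 checkpoint genes, 4 had every C646 library below every solvent library, beside 11.6% of all genes, and the median change was -0.78. BUB1B encodes BubR1, which inhibits the anaphase promoting complex, at chr15:40161023-40221136 on the plus strand. It stood at 41.5, 31.4 and 36.9 CPM with DMA, 19.5, 22.1 and 23.9 with C646, 55.1, 30.5 and 38.1 with solvent and 36.3, 50.2 and 49.6 in starved cells. Its C646 libraries lay below all 9 others. The log2 change with C646 against solvent was -0.92 ± 0.21 (0.53-fold, adjusted p = 0.0498). The call was lost on leaving out solvent library 1, solvent library 3 or any C646 library, and adjusted p ranged from 0.00262 to 0.942 over the alternatives.

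BUB1, the kinase that docks checkpoint proteins at kinetochores, stood at 45.8, 40.5 and 33.6 CPM with DMA, 18, 25 and 24 with C646, 43.5, 27.4 and 29.8 with solvent and 32, 42.4 and 27.4 in starved cells. TTK (MPS1), the kinase at the head of the checkpoint, stood at 20.3, 11.4 and 13.1 CPM with DMA, 8.79, 9.07 and 7.59 with C646, 22.9, 12 and 10.8 with solvent and 16.8, 16.3 and 12.4 in starved cells. In both genes the C646 libraries were the lowest 3 of the 12. MAD2L1, which encodes the checkpoint effector MAD2, had a log2 change of -0.78 ± 0.19 with C646 against solvent (adjusted p = 0.0672) and of -0.35 ± 0.19 with DMA. BUB3 stood apart, at 325, 284 and 318 CPM with DMA, 311, 248 and 278 with C646, 350, 282 and 258 with solvent and 278, 253 and 285 in starved cells. The BUB3 libraries of the 4 groups overlapped, with a log2 change of -0.09 ± 0.13 with C646 against solvent.

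The 8 centromere and kinetochore genes had a median change of -0.76 with C646 against solvent and of -0.04 with DMA against solvent. In 7 of the 8 every C646 library lay below every solvent library, beside 11.6% of all genes. NDC80, a subunit of the complex that binds microtubules, had the lowest value of the 58 genes, -0.94 ± 0.27 with an adjusted p of 0.102. Its partners in that complex, NUF2 and SPC25, had -0.78 ± 0.29 and -0.80 ± 0.35, and KNL1, the scaffold for checkpoint proteins, had -0.76 ± 0.34. CENPF, a large protein of the outer kinetochore, stood at 88.8, 53.7 and 48 CPM with DMA, 33.1, 38.5 and 39.7 with C646, 87.7, 43.2 and 45.6 with solvent and 112, 136 and 75.4 in starved cells. The C646 libraries of CENPF were the lowest 3 and 2 starved libraries the highest. CENPA, the histone variant of centromeres, CENPE, a kinetochore motor, and CENPU, of the inner kinetochore, had changes of -0.75 ± 0.32, -0.68 ± 0.37 and -0.62 ± 0.21.

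The 8 kinesin genes all had log2 changes below 0 with C646 against solvent (median -0.70), and with DMA all were below 0 too (median -0.15, lowest -0.37), though with spike-in scaling 6 of them were above 0. None was called in either comparison. KIF20A, a motor of the central spindle, stood at 36.4, 25.3 and 25.1 CPM with DMA, 13.8, 20 and 21.6 with C646, 43, 24 and 24.9 with solvent and 34.1, 36.8 and 25 in starved cells. Its C646 libraries were the lowest 3 of the 12. KIF14, a kinesin of cytokinesis, stood at 16.9, 10.2 and 10.5 CPM with DMA, 8.70, 8.67 and 12.1 with C646, 17.7, 10.3 and 9.94 with solvent and 24.7, 20.9 and 18.2 in starved cells. Every starved library of KIF14 was above every refed one. KIF11, which slides spindle poles apart, had a log2 change of -0.79 ± 0.26 with C646, and KIF2C, which depolymerises microtubules, had -0.68 ± 0.18.

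The 8 spindle microtubule genes had a median of -0.45 with C646 and of 0.11 with DMA, both against solvent. TPX2, the activator of Aurora A, stood at 92, 76.9 and 63.9 CPM with DMA, 43.7, 58.3 and 47.5 with C646, 112, 66.1 and 63 with solvent and 74.3, 95.6 and 63.4 in starved cells. Again C646 held the 3 lowest libraries. CKAP5 (chTOG), a microtubule polymerase, stood at 163, 112 and 96.1 CPM with DMA, 131, 124 and 110 with C646, 163, 130 and 115 with solvent and 148, 173 and 137 in starved cells. The CKAP5 libraries of the refed groups overlapped, and its log2 change was 0.02 ± 0.18 for DMA against C646. TACC3, the partner of CKAP5 on spindle fibres, had log2 changes of 0.37 ± 0.18 with DMA and -0.30 ± 0.18 with C646 against solvent, with DMA libraries all above and C646 libraries all below the solvent ones.

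Among the 5 genes of the central spindle and cytokinesis, the median change was -0.43 with C646 and 0.16 with DMA against solvent. RACGAP1, the GTPase-activating subunit of centralspindlin, stood at 61.3, 60.8 and 52.6 CPM with DMA, 30.3, 37.8 and 37 with C646, 67.8, 45.3 and 42.8 with solvent and 50.3, 58.7 and 44.3 in starved cells. PRC1, which bundles antiparallel microtubules, stood at 120, 106 and 93.2 CPM with DMA, 50.8, 69 and 68.6 with C646, 107, 74.8 and 72.8 with solvent and 77.1, 110 and 80.8 in starved cells. For both genes the C646 libraries were the lowest 3. The difference between DMA and C646 was 1.66-fold for RACGAP1 (log2 0.73 ± 0.18, adjusted p = 0.0414) and 1.7-fold for PRC1 (log2 0.76 ± 0.19, adjusted p = 0.0449). PRC1 is uncertain, since 58.4% of its exonic bases overlap other annotated genes and 56.4% of its 31-base sequences occur in them. The same limit of 20% marks ARHGAP11A, CDC20, KIF4A, NCAPG, NUSAP1 and SMC4.

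Chromosome condensation was represented by TOP2A, which encodes topoisomerase II alpha, and 4 condensin subunits, with a median of -0.50 with C646 and of -0.19 with DMA against solvent. TOP2A stood at 126, 81.1 and 70.4 CPM with DMA, 67.8, 60.1 and 62.1 with C646, 161, 80.3 and 86.4 with solvent and 141, 137 and 127 in starved cells. Its C646 libraries were the lowest 3, and only solvent library 1 exceeded the starved ones. The 4 genes of anaphase promotion and separation had a median of -0.28 with C646 and of 0.12 with DMA. CDC20, the activator of the anaphase promoting complex, stood at 74.4, 59.5 and 54 CPM with DMA, 37.8, 50.2 and 45.8 with C646, 72.7, 50.8 and 48.3 with solvent and 51.5, 70 and 44 in starved cells. C646 overlapped solvent for CDC20, and likewise for UBE2C (-0.20 ± 0.16) and PTTG1 (-0.08 ± 0.13).

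FOXM1, the transcription factor that activates many of these genes in G2, stood at 96.1, 103 and 90.9 CPM with DMA, 65.2, 98.2 and 93.7 with C646, 91.1, 90.1 and 79.8 with solvent and 69.7, 117 and 94.1 in starved cells. Its libraries overlapped between the groups, and its change of -0.02 ± 0.18 with C646 against solvent was the one nearest 0 among the 58. MKI67, the proliferation antigen Ki-67 that coats mitotic chromosomes, stood at 232, 126 and 122 CPM with DMA, 86.6, 92.9 and 97 with C646, 202, 108 and 116 with solvent and 146, 150 and 86.3 in starved cells. Its C646 libraries were below every DMA and solvent library, and starved library 3, at 86.3 CPM, was the lowest of all.

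**Figure D4:**
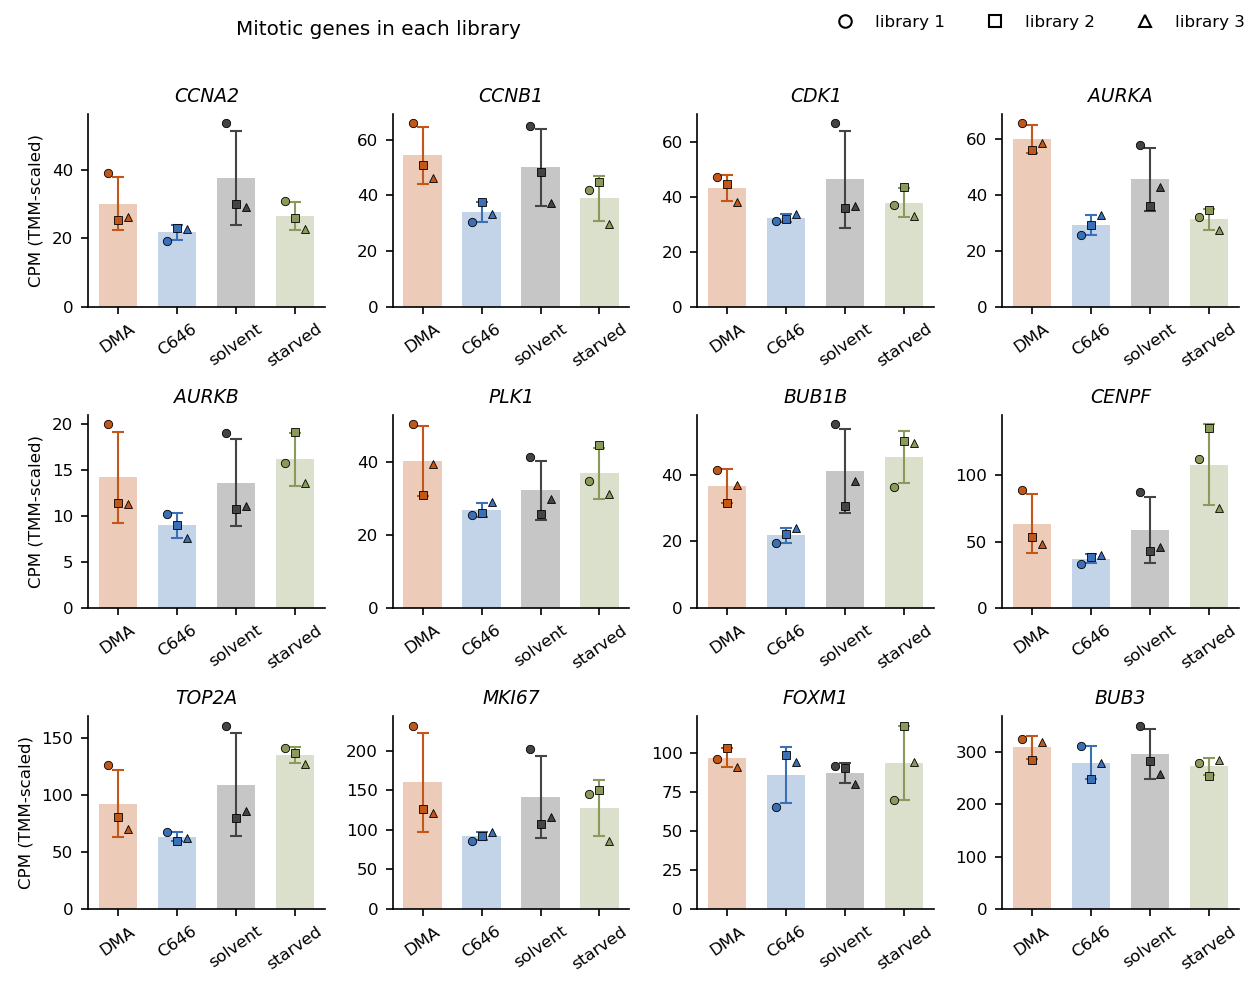
TMM-scaled CPM of 12 of the mitotic genes in each library (points), with the group mean (bar) and SD (error bar, n = 3) for DMA, C646, solvent and starved cells. The C646 libraries are the lowest 3 for AURKB, BUB1B, CENPF and TOP2A. For AURKA they lie at 25.7 to 32.9 CPM, against 56 to 65.5 CPM with DMA, and overlap the starved libraries. FOXM1 and BUB3 overlap between the groups.

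The refed groups were also set against starved cells, which had no refeeding and no named solvent. The differences take FCS, glucose, the 4 h of refeeding and the compound or DMSO together. These comparisons share the starved libraries. Refeeding with C646 gave 17 genes called lower and none higher, of which none was called with spike-in scaling, beside 11.7% of all genes called lower and 12.9% called higher. The median change was -0.59, beside 0.01 for all genes, with 55 of 58 below 0. In 37 genes (63.8%) every C646 library lay below every starved library, beside 19.9% of all genes, and in none above, beside 20.6%. With the number as a block, which took these libraries as pairs, 32 genes were called lower, beside 17.8% of all genes. DESeq2 called 26, beside 13.8%. With spike-in scaling the median of the 58 was 0.14, beside 0.73 for all genes, with 38 above 0, 4 at an unadjusted p under 0.05 and none called, beside 34.2% of all genes. The count of 17 was between 9 and 16 with any 1 library left out, and 9 without C646 library 1 or without C646 library 2.

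The decrease of greatest size among the 17 was in CENPF, with a mean of 37.1 ± 3.53 CPM in C646 cells and 108 ± 30.5 CPM in starved cells (0.343-fold, log2 -1.54 ± 0.31, adjusted p = 0.00358). KIF14 fell by 1.12 ± 0.27 on the log2 scale (adjusted p = 0.00875), TOP2A fell by 1.09 ± 0.25 (adjusted p = 0.00819) and BUB1B fell by 1.05 ± 0.21 (adjusted p = 0.00284). The other 13 were NEK2, KIF2C, NDC80, CDC25C, CCNB2, CDC25B, CENPU, AURKB, TTK, KIF20A, KIF18A, MAD2L1 and RACGAP1, between -1.04 and -0.55. By role, the called genes were 4 of 8 kinesin genes, 3 of 8 kinetochore genes, 3 of 5 checkpoint genes and 3 of 6 genes of cyclins, CDK1 and phosphatases. Of all genes 11.7% were called lower, and roles of so few genes cannot be ranked by these counts. The mitotic kinases and passenger genes had 2 of 7, condensation 1 of 5 and the central spindle 1 of 5. Spindle microtubule genes and anaphase genes had none, with medians of -0.50 and -0.31, and FOXM1 and MKI67 were not called either. With spike-in scaling none of the 17 was called, KIF18A, RACGAP1 and MAD2L1 changed sign, and CENPF kept a value of -0.80 (adjusted p = 0.0515).

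Refeeding with solvent gave 1 called gene against starved cells. AURKA rose 1.45-fold, with 45.5 ± 11.3 CPM in solvent cells and 31.4 ± 3.77 CPM in starved cells (log2 0.54 ± 0.17, adjusted p = 0.0356), beside 12.6% of all genes called higher. No gene was called lower, beside 11.7% of all genes. The median of the 58 was -0.01, beside 0.00 for all genes, and with spike-in scaling it was 0.46 beside 0.60, with 4 called higher, beside 21.1% of all genes. Every solvent library was above every starved one in 1 gene and below in 3 (KIF14, CDC25C and CCNB2), beside 20.5% and 19.5% of all genes. The call for AURKA was kept without solvent library 2, and was lost without solvent library 1 or 3, without any 1 starved library and with the 2 compared groups alone. Without solvent library 1 the median was -0.29, and CENPF, KIF14 and TOP2A were called lower, beside 8.37% of all genes. By number, the median log2 ratio of the 58 genes was 0.44 in libraries 1, -0.47 in libraries 2 and -0.14 in libraries 3, so that the direction differed between numbers.

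Refeeding with DMA gave 1 gene called higher and 2 lower against starved cells, beside 13.9% and 13% of all genes. AURKA rose 1.91-fold, with 60 ± 4.89 CPM in DMA cells and 31.4 ± 3.77 CPM in starved cells (log2 0.93 ± 0.17, adjusted p = 0.00163). That call was kept under every alternative run, with adjusted p between 9.72e-06 and 0.00954. KIF14 fell by 0.77 ± 0.26 (adjusted p = 0.0461) and CDC25C fell by 0.67 ± 0.24 (adjusted p = 0.0484), and with spike-in scaling both were above 0. Leaving out either of starved libraries 1 and 2 or either of DMA libraries 2 and 3 left AURKA as the only call, and without DMA library 1 there were 6. The median of the 58 was -0.03 beside 0.00 for all genes, and with spike-in scaling it was 0.75 beside 0.81, with 26 called higher, beside 42.2% of all genes. Every DMA library was above every starved one in 3 genes and below in 6, beside 21.1% and 20.5% of all genes. With the number as a block, which took these libraries as pairs, CCNB1 was also called higher, beside 19.2% of all genes. CENPF, KIF2C, SMC4 and TOP2A were also called lower, beside 19.5%.

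**Figure D5:**
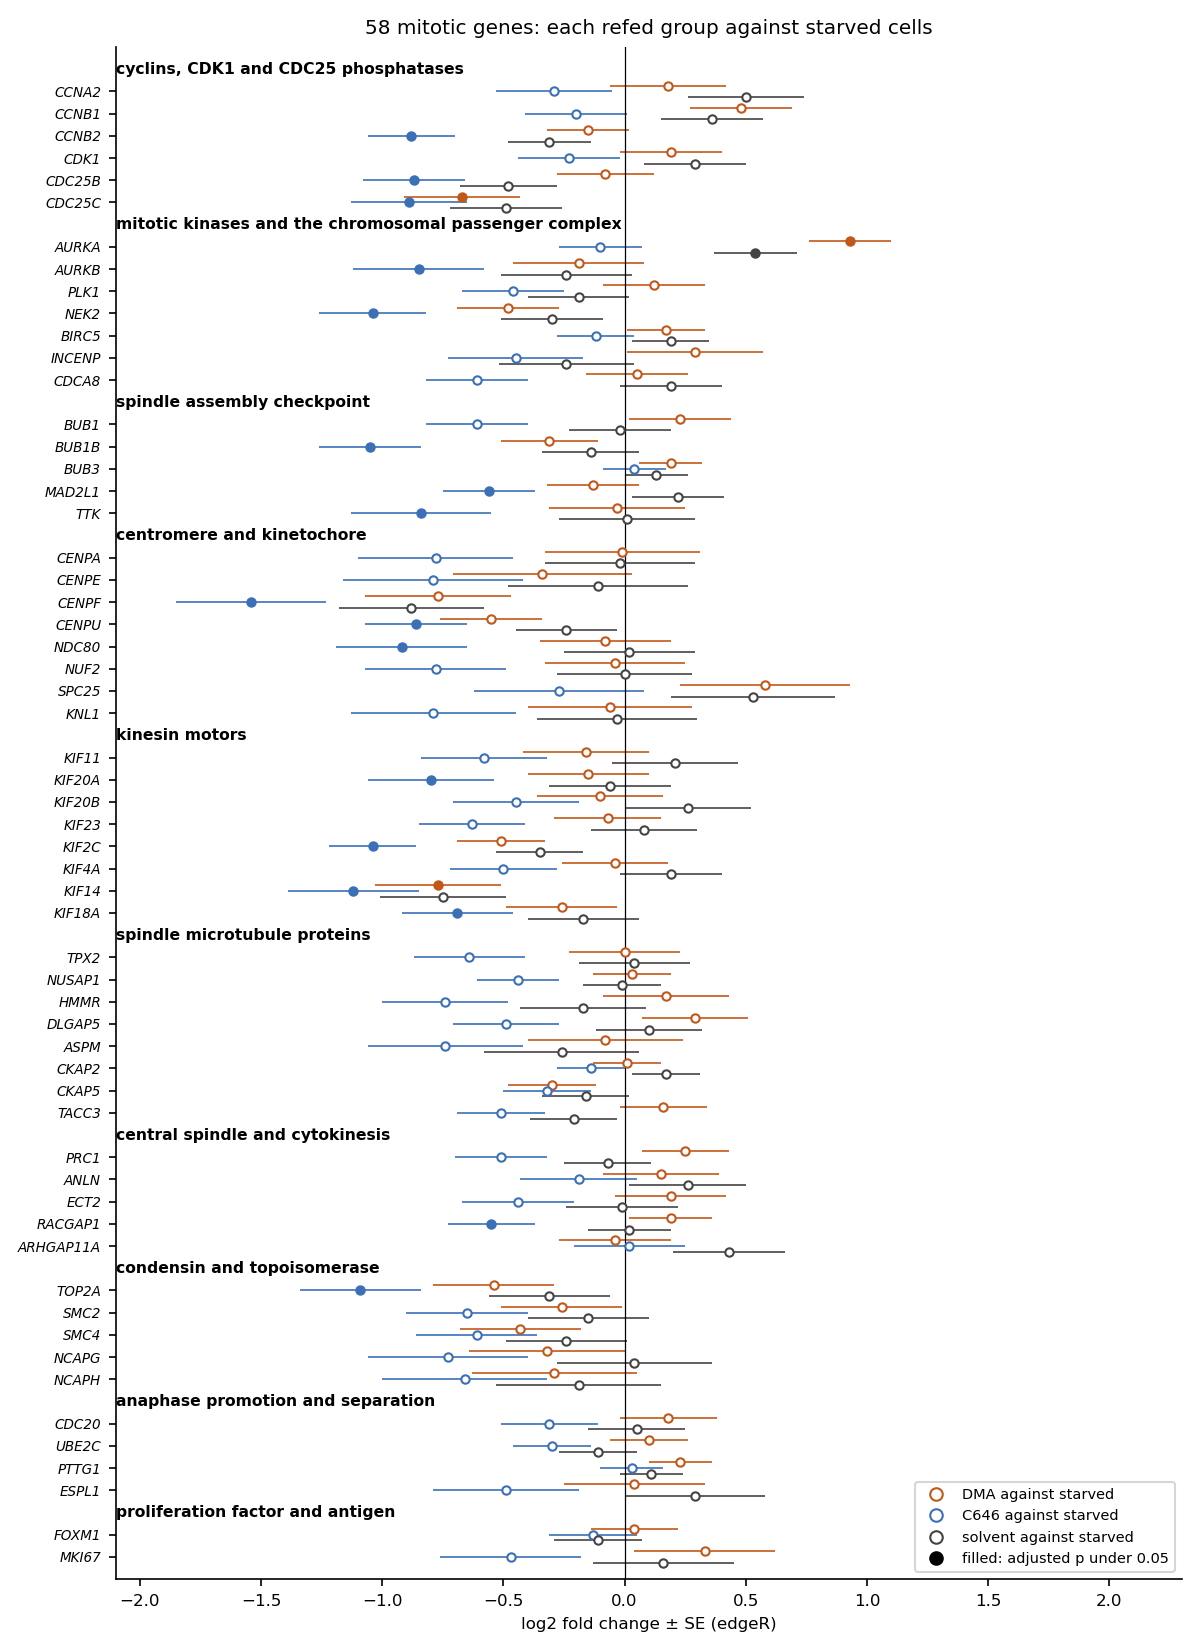
Log2 fold change ± SE of each of the 58 genes against starved cells for DMA (orange), C646 (blue) and solvent (grey), with filled points for adjusted p under 0.05. The 17 filled blue points lie between -1.54 and -0.55, and AURKA has filled points at 0.93 with DMA and 0.54 with solvent.

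A list of 63 other mitotic genes, all tested, was set beside the 58. With C646 against solvent none was called, beside 0.4% of all genes called lower, and 33 had an unadjusted p under 0.05. In 28 of the 63 (44.4%) every C646 library was below every solvent library, beside 11.6% of all genes. In none was every one above, beside 10.2%. Their median was -0.57. DESeq2 called 18 lower, beside 2.76% of all genes, and the block called 18 lower, beside 3.73%. With DMA against solvent none was called, beside 0.734% of all genes called higher and 1.02% called lower. There 8 had an unadjusted p under 0.05 and the median was -0.19. Between the inhibitors HJURP, the chaperone that loads CENPA, was higher with DMA than with C646 (log2 1.28 ± 0.27, adjusted p = 0.0253), as were KIF22, a chromosome-arm kinesin (0.95 ± 0.22), and CKS2, a CDK1-binding subunit (0.60 ± 0.14). With spike-in scaling HJURP kept its call (1.32, adjusted p = 0.035), while KIF22 and CKS2 had adjusted p of 0.225 and 0.803, and with any 1 library left out 0 to 2 of the 63 were called. Against starved cells C646 gave 12 lower, beside 11.7% of all genes, and 1 higher, CKS2 (0.73 ± 0.14), beside 12.9%, but with spike-in scaling 9 were called higher and none lower, beside 34.2% of all genes called in either direction. The 12 were led by CIT, a cytokinesis kinase (-1.29 ± 0.24), CKAP2L, a spindle protein (-1.24 ± 0.26), and CENPI, of the inner kinetochore (-1.23 ± 0.29). With spike-in scaling CIT had -0.54 (adjusted p = 0.212), CKAP2L -0.52 (adjusted p = 0.24) and CENPI -0.52 (adjusted p = 0.329). DMA gave 5 higher and 5 lower, beside 13.9% and 13% of all genes, and with spike-in scaling 34 higher and none lower, beside 42.2% called higher. Solvent gave 6 higher and 3 lower, beside 12.6% and 11.7% of all genes, and with spike-in scaling 15 higher and none lower, beside 21.1% called higher. The condensin subunit NCAPD2 was lower than in starved cells with DMA (-0.74 ± 0.19), with C646 (-1.19 ± 0.19) and with solvent (-1.06 ± 0.19), but with spike-in scaling the values were 0.03, -0.47 and -0.51, and none was called. CKS2 was higher with DMA (1.33 ± 0.14) and with solvent (0.89 ± 0.14) as well.

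Of 14 regulators of mitotic genes, the CCAAT-binding subunit NFYA was lower with DMA than with solvent (-0.57 ± 0.13, adjusted p = 0.04) and than with C646 (-0.62 ± 0.13, adjusted p = 0.021). With spike-in scaling the values were -0.36 (adjusted p = 0.889) and -0.55 (adjusted p = 1), so both calls were lost. None of the 14 was called with C646 against solvent, beside 0.4% of all genes called lower, with 4 at an unadjusted p under 0.05. Against starved cells E2F4, the E2F factor of the DREAM complex, was higher with DMA (0.72 ± 0.11), C646 (0.47 ± 0.11) and solvent (0.49 ± 0.11). RBL2 (p130), its pocket protein, was lower with DMA (-0.49 ± 0.13), C646 (-0.66 ± 0.13) and solvent (-0.66 ± 0.13), but with spike-in scaling the values were 0.35, 0.07 and -0.05, and none was called. LIN52, a DREAM core subunit, was lower with DMA (-1.52 ± 0.25) and with C646 (-1.19 ± 0.25), and with spike-in scaling these values were -0.76 (adjusted p = 0.134) and -0.52 (adjusted p = 0.321), neither called. Of 15 subunits and activators of the anaphase promoting complex, only ANAPC4 was called with either inhibitor against solvent, lower with DMA (-0.75 ± 0.16, adjusted p = 0.0401, and 0.802 with spike-in scaling). Every C646 library lay below every solvent library in 9 of the 15 (60%), beside 60.3% of the 58 and 11.6% of all genes. In none was every one above, beside 10.2% of all genes.

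The 32 DNA replication genes were measured in the same comparisons. Their median change against solvent was -0.68 with DMA and -0.72 with C646, and between the inhibitors it was 0.05, where the 58 mitotic genes had 0.55. Every C646 library was below every solvent library in 14 of the 32 (43.8%), beside 11.6% of all genes. With DMA this held in 18 (56.2%), beside 11.9%. With neither inhibitor was every library above in any of the 32. In these 3 comparisons CLSPN, a replication checkpoint adaptor, was the one called, lower with DMA than with solvent (-1.79 ± 0.40, adjusted p = 0.043, and 0.086 with spike-in scaling), while 23 of the 32 had an unadjusted p under 0.05 with DMA and 26 with C646. Without solvent library 1 the replication medians were -0.31 with DMA and -0.40 with C646.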

How the data were processed

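RNA was sequenced in 12 libraries, 3 per group, and grouped by the labels. The deposited tables give estimated counts and TPM per transcript, named so in the file headers. Per the submitters' processing notes the authors used Trimmomatic 0.36, STAR 2.7.0e and GRCh38.p10. The kit keeps strand, per the labels' protocols, but which program, annotation and strand setting gave the counts was not given in the sources used here, so genes that overlap are uncertain. Of 182164 transcripts, 92 were spike-in controls and 264 had no match in the gene annotation (0.0923 to 0.146% of counts), and both stayed out of library sizes. Expected counts were summed per gene and rounded to whole numbers, and TPM were summed per gene.

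Genes were tested in edgeR 4.0.16 (R 4.3.3) with the robust quasi-likelihood test, TMM scaling, all 12 libraries in 1 fit and Benjamini-Hochberg adjustment over 15263 genes that passed the expression filter (minimum count 10, minimum total 15). The threshold was 0.05. The script was tested on simulated data. A count of 3 corresponds to 0.104 to 0.201 CPM, which covers counting error only. Alternatives were DESeq2 1.42.0, its size factors, spike-in scaling, no filter or a stricter one (1 CPM), the 2 compared groups alone, leaving out each library, and the library number as a block. Same-numbered libraries deviated together, with correlations of 0.128 to 0.483 and every one above 0.1, in all comparisons but solvent against starved. The numbers were therefore taken as pairs in those 5 comparisons, as a hint from the data and not from the labels.

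The 58 members, the lists and the tests were chosen with earlier results of these data known. Values in every library are given for a panel of 19 genes and for up to 4 genes per direction with the largest change past the threshold in a comparison. From the other lists up to 3 genes per direction were named. Genes sharing over 20% of their exonic bases or 31-base sequences with other genes are given as uncertain. Promoters are from RefSeq on GRCh38.p14.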

Additional observations from a re-analysis of the deposited data

How the results depend on the processing

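Counts in this section are mostly given without the share of all genes called in the same fit, so they do not show an excess. With DMA against solvent no mitotic gene was called under any alternative run. With C646 against solvent, where 1 was called, DESeq2 called 12, no filter 6 and the replicate block 11. Spike-in scaling, DESeq2's size factors, the compared groups alone, and the replicate block without solvent library 1 each called 0, and leaving out 1 library gave 0 to 1. With DMA against C646 the 4 calls became 12 with DESeq2, 9 with no filter, 13 with the replicate block, 1 with the compared groups alone and 0 with spike-in scaling, and 1 to 2 without 1 library. With C646 against starved cells the 17 became 26 with DESeq2, 29 with the compared groups alone, 32 with the replicate block and 0 with spike-in scaling, and 9 to 16 without 1 library. With DMA against starved cells the 3 became 5 with DESeq2, 26 with spike-in scaling, all higher, and 8 with the replicate block, and 1 to 6 without 1 library. Spike-in scaling called 42.2% of all genes higher there. With solvent against starved cells the 1 call became 3 with DESeq2 and with the stricter filter, 4 with spike-in scaling, 2 with no filter, and 0 to 3 without 1 library. There same-numbered libraries correlated at 0.0957, 0.33 and 0.182. Not every value was above 0.1, so the numbers were not taken as pairs, which does not show that they were unpaired. The replicate block gave 4, and 8 without solvent library 1.

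Of the 63 other mitotic genes, DMA against solvent gave 1 with DESeq2, 1 with the replicate block and 1 with the block without solvent library 1, beside 0. C646 against solvent gave 18 with DESeq2, 18 with the block, 11 with no filter, 2 with the stricter filter, 1 with the block without solvent library 1 and 0 to 4 without 1 library, beside 0. DMA against C646 gave 6 with DESeq2, 6 with the block, 1 with spike-in scaling and 0 to 2 without 1 library, beside 3. Solvent against starved gave 15 with spike-in scaling, all higher, and 17 with the block, beside 6 higher and 3 lower. Spike-in scaling called 21.1% of all genes higher there. DMA against starved gave 34 with spike-in scaling, all higher, and 3 to 6 without 1 library, beside 5 higher and 5 lower. Spike-in scaling called 42.2% of all genes higher in that comparison. C646 against starved gave 22 with the block, 20 with the compared groups alone and 8 to 14 without 1 library, beside 1 higher and 12 lower, while spike-in scaling gave 9 higher and none lower.

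With spike-in scaling the summed means were 3354 CPM with DMA, 2357 with C646 and 1970 in starved cells. The log2 change turned to 0.77 for TPX2, 0.02 for KIF14 and 0.15 for CDC25C with DMA against starved cells, and to 0.03 for KIF18A, 0.19 for RACGAP1 and 0.15 for MAD2L1 with C646 against starved cells. The cause of these differences was not tested. With 3 libraries a group, changes near the SE of 0.13 to 0.37 are not resolved.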
